A study of Mus musculus with 28 samples.

Results

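The Ly6 surface antigens of this series are 4 mouse genes, Ly6a, Ly6c1, Ly6c2 and Ly6e, found by symbol among the 55291 genes of each deposited table. They were selected on their measured levels and differences between these groups, so their values and differences are given as a description, without a test. RNA was sequenced in 28 libraries of 8 groups. LLC is a mouse lung carcinoma line, labelled wild type, and BAY-876 is a compound that blocks GLUT1, a glucose transporter. In the 32 h experiment, cells had 200 nM BAY-876 for 24 h followed by 20 ng/ml TNF for 32 h, TNF alone, BAY-876 alone, or neither (control, also labelled vehicle), with 3 libraries each. The labels do not say whether BAY-876 stayed on the cells during the hours with TNF. In the 36 h experiment, LLC cells had 200 nM BAY-876 or vehicle, again with 3 libraries each. On day 16, OT1 T cells and tumour cells were sorted from tumours of LLC-OVA-NGFR cells in Rag1 ko mice, 5 libraries each. OT1 cells are CD8 T cells with a transgenic receptor for an ovalbumin peptide. They were activated, and transferred on day 9. The Rag1 ko hosts make no T or B cells but keep their myeloid and NK cells. All cultured and tumour libraries descend from 1 line. The labels do not say that replicates were separate cultures or mice, so p-values measure only the spread between these libraries, which may be technical.

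Ly6 proteins are small, cysteine-rich molecules held on the outer face of the plasma membrane by a glycosylphosphatidylinositol (GPI) lipid, and the mouse genes form a cluster. Ly6a encodes Sca-1, known as a marker of blood stem cells and as an antigen that activated T cells and interferon-treated cells carry. Ly6c1 and Ly6c2 encode the near-identical forms of Ly6C, the antigen used to tell monocyte subsets apart and also found on effector and memory CD8 T cells and on endothelium. Ly6e encodes a broadly expressed member known as a thymocyte antigen, as a receptor for a placental syncytin in mice and as a factor that limits entry of some viruses.

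The 4 genes lie within 156.92 kb of chromosome 15 (GRCm38, GENCODE annotation). Ly6e (ENSMUSG00000022587.14) spans 74955051 to 74959905 on the plus strand. Ly6a (ENSMUSG00000075602.10) spans 74994877 to 74998031, Ly6c1 (ENSMUSG00000079018.10) spans 75044018 to 75048830 and Ly6c2 (ENSMUSG00000022584.14) spans 75108158 to 75111970, all on the minus strand. All are protein-coding. The coding sequences of Ly6c1 and Ly6c2 are 393 bases each and differ at 9 bases (97.7% identical), and their longest identical run is 188 bases. The stretch that holds 6 of the 9 differences, coding bases 6 to 65 in 1 exon, is shown because the coding sequences differ most there. Capitals mark the differing bases.
Ly6c1 coding, chr15:75048447-75048506, minus strand: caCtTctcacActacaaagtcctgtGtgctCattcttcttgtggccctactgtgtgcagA
Ly6c2 coding, chr15:75111603-75111662, minus strand: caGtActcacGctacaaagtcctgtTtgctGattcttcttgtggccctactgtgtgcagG
Ly6a was 83.7% identical to Ly6c1 over 393 aligned coding bases, and Ly6e was 55.1% identical to Ly6c1 over 379. Of the 836 stretches of 31 bases in Ly6c2 transcripts, 403 (48.2%) also occur in Ly6c1 transcripts. Those 403 are 22.9% of the 1758 in Ly6c1. Ly6e shares 0 of its 2696 with the other members. Ly6a transcripts have 1259 such stretches, of which 276 (21.9%) also occur in Ly6c1 transcripts. Of the 1156 in their neighbour Ly6i, 106 (9.17%) also occur in Ly6a. How the deposited values divided reads that match more than 1 of these genes was not stated in the sources used here. A small value of one beside a large value of another is therefore uncertain, and Ly6a and Ly6c1 may not be fully separate measures.

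The 250 bases before a start site of each Ly6c gene are shown because the pair parted in the sorted cells (RefSeq, GRCm38.p6, minus strand). Capitals mark a match to the loose NF-kappaB motif (GGG and CC around 5 free bases), here on the opposite strand.
Ly6c1 promoter, chr15:75048838-75049087: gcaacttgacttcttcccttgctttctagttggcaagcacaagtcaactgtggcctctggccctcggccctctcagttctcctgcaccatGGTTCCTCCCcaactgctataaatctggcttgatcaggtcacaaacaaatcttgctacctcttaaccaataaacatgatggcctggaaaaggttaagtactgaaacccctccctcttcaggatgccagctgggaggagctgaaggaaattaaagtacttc
Ly6c2 promoter, chr15:75111972-75112221: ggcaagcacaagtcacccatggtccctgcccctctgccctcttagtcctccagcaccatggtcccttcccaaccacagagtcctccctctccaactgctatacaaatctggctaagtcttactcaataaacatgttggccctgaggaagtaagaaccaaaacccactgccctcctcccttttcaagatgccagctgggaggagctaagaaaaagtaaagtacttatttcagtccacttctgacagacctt
The shown windows aligned over 216 bases with 75.9% identical. The table lists 2 start sites for each gene, and windows of the 250 bases before each were searched on both strands for 4 motifs. The loose NF-kappaB motif occurred in both Ly6c1 windows and in neither Ly6c2 window, and in 45.8% of all 32851 promoters of the table. The 2 Ly6c2 windows overlap over most of their length, so they are not 2 separate searches. The strict form (GGG, 2 free bases, TTTCC, itself a case of the loose form, in 1.41% of promoters), the interferon-stimulated response element (GAAA, 2 free bases, GAAA, 2.98%) and the interferon gamma activated site (TTC, 3 free bases, GAA, 7.02%) were in none of the 4 windows. These letters describe the windows and do not identify binding sites.

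At 32 h, Ly6a and Ly6c1 were lower with TNF, lower with BAY-876 and lowest with both, and Ly6e was also lowest with both and highest in control cells, over a much narrower range. Ly6c1 stood at 10.9, 12.9 and 10.3 TPM with BAY-876 plus TNF, at 30.5, 24.1 and 23.5 TPM with TNF, at 105, 113 and 104 TPM with BAY-876, and at 262, 260.2 and 276 TPM in control cells. No library of a group overlapped a library of another group. The means were 11.4 ± 1.41, 26.0 ± 3.93, 107 ± 5.03 and 266 ± 8.59 TPM (SD, n = 3 each) in the same order of groups, so the mean with TNF was 10.2-fold lower than the control mean and the mean with BAY-876 was 2.49-fold lower.

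Ly6a stood at 4.59, 4.25 and 4.01 TPM with BAY-876 plus TNF, at 7.82, 8.92 and 6.78 TPM with TNF, at 18.7, 20.1 and 19.5 TPM with BAY-876, and at 53.4, 46.8 and 49.7 TPM in control cells. Again no groups overlapped. The mean with TNF was 6.37-fold lower than the control mean and the mean with BAY-876 was 2.57-fold lower, so the BAY-876 ratios of Ly6a and Ly6c1 lay close together and their TNF ratios lay further apart.

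Ly6e stood at 1134, 1119 and 1120.2 TPM with BAY-876 plus TNF, at 1348, 1344 and 1293 TPM with TNF, at 1377, 1294 and 1369.7 TPM with BAY-876, and at 1670.1, 1709.7 and 1669 TPM in control cells. The libraries with TNF alone and with BAY-876 alone overlapped each other, those of the combination lay below all others and those of control cells above all others. Ly6c2 was listed at 0 in 2 of 3 combination libraries, all 3 TNF libraries, 1 of 3 BAY-876 libraries and 1 of 3 control libraries, and reached 0.191 TPM at most. It passed no filter on low values at 32 h or 36 h, while the other members passed in every table.

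**Figure D1:**
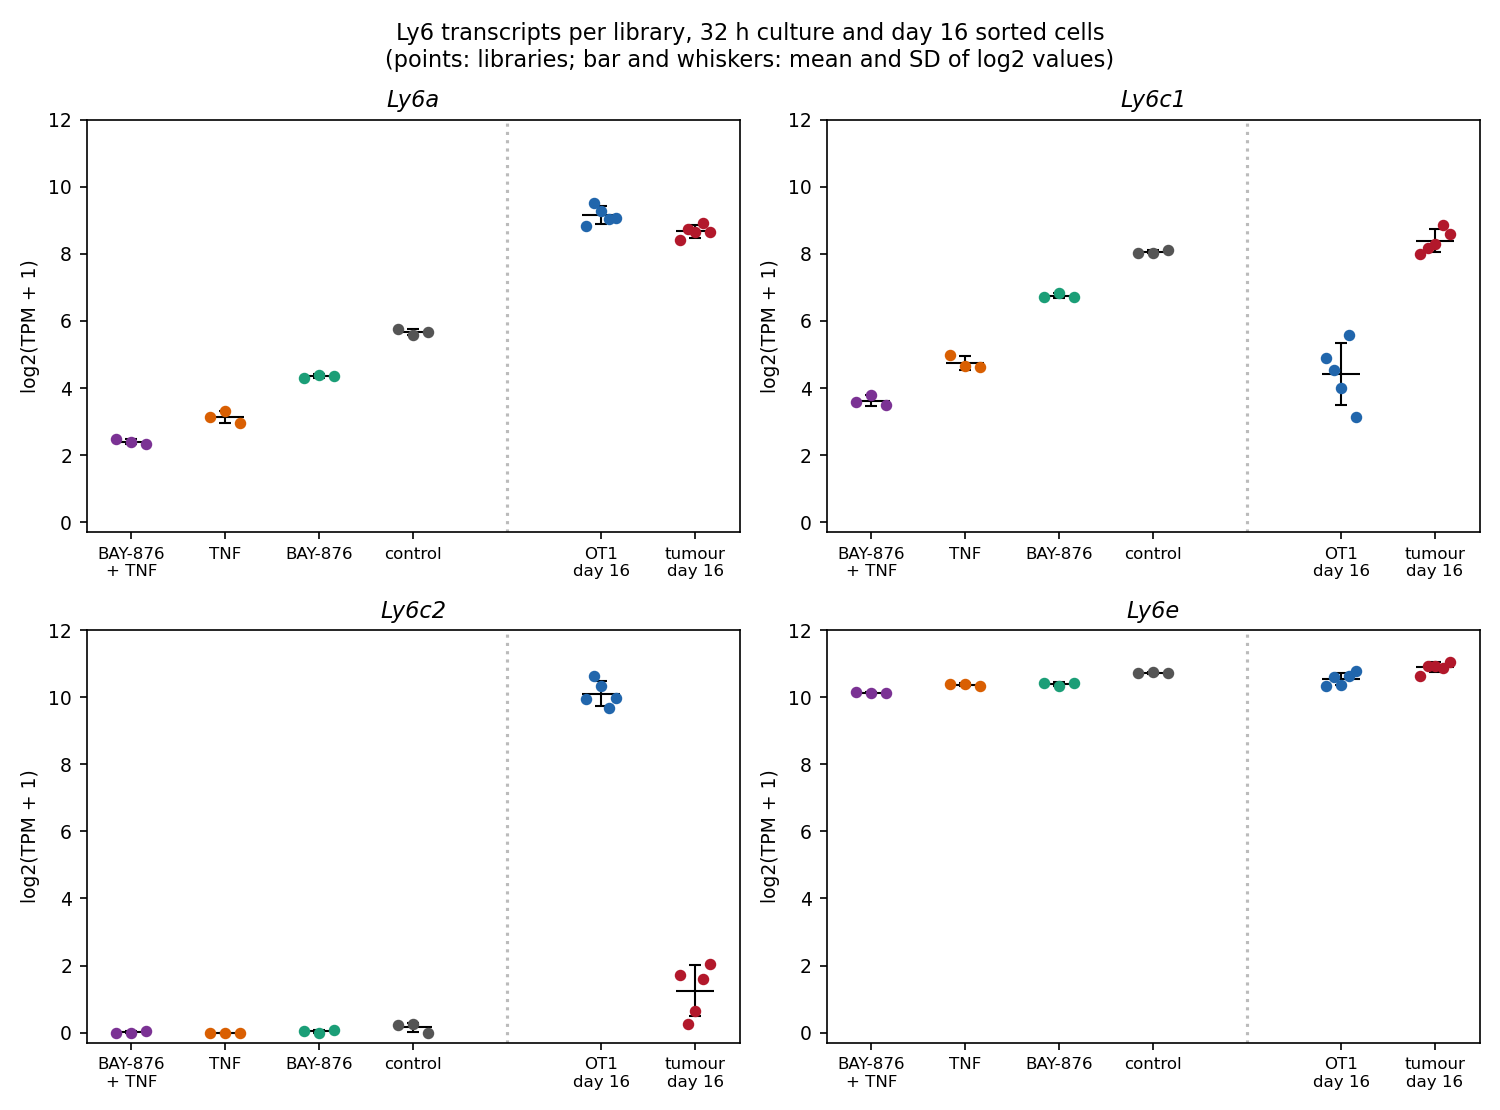
Level of each Ly6 gene as log2(TPM + 1), with 1 point per library and the mean and SD of the log2 values, for the 4 culture groups at 32 h (n = 3 each) and the 2 sorted groups of day 16 (n = 5 each). Ly6a and Ly6c1 step down across the culture treatments, Ly6e stays between 1119 and 2103 TPM in every library, and Ly6c2 is at 818 TPM or more in OT1 libraries and at 3.09 TPM or less in all others. The 32 h and day 16 tables were normalized separately.

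Differences were fitted on log2(TPM + 1), a scale that understates those of genes at low levels. BAY-876 against control gave a log2 difference of −1.32 (SE 0.09) for Ly6a, −1.31 (SE 0.10) for Ly6c1 and −0.32 (SE 0.03) for Ly6e. TNF against control gave −2.53 (SE 0.09) for Ly6a, −3.31 (SE 0.10) for Ly6c1 and −0.34 (SE 0.03) for Ly6e. These comparisons share the control libraries. In each, the libraries of 3 of the 4 members did not overlap, and the share of all genes without overlap was not computed. Another measure is the threshold of 0.05 on adjusted p. It was passed by 37.4% of all genes tested for BAY-876 and 45.6% for TNF, in either direction. The medians over all genes tested were −0.09 and −0.06.

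Added to BAY-876, TNF went with a log2 difference of −1.95 (SE 0.09) for Ly6a, −3.13 (SE 0.10) for Ly6c1 and −0.26 (SE 0.03) for Ly6e, where 44.2% of all genes tested passed. Added to TNF, BAY-876 went with −0.74 (SE 0.09) for Ly6a, −1.12 (SE 0.10) for Ly6c1 and −0.24 (SE 0.03) for Ly6e, where 34.0% passed. The medians over all genes tested were −0.05 and −0.08. Both comparisons share the combination libraries. In both, the libraries of 3 of the 4 members did not overlap, and the share of all genes without overlap was not computed. Overlap is another measure than passing on adjusted p. As ratios of means, Ly6a was 1.83-fold lower and Ly6c1 2.29-fold lower with the combination than with TNF alone. The interaction, which is the BAY-876 difference with TNF minus that without, was 0.58 (SE 0.13) for Ly6a, 0.18 (SE 0.14) for Ly6c1 and 0.08 (SE 0.04) for Ly6e, against a median of 0.001 over all genes tested, of which 1.56% passed.

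The authors' deposited table of TNF against control gave a log2 fold change of −2.598 (SE 0.18) for Ly6a, −3.29 (SE 0.11) for Ly6c1 and −0.27 (SE 0.03) for Ly6e. In the authors' deposited table of BAY-876 against control the values were −1.26 (SE 0.14), −1.21 (SE 0.08) and −0.22 (SE 0.04). In the authors' deposited table of the combination against TNF they were −0.79 (SE 0.33), −1.11 (SE 0.24) and −0.15 (SE 0.05), and in the authors' deposited table of the combination against BAY-876 they were −2.13 (SE 0.25), −3.18 (SE 0.17) and −0.20 (SE 0.05). Ly6c2 has no row in the authors' deposited tables of these 4 comparisons.

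The makeup of the summed Ly6 level shifted with the treatments. The 4 members summed to 1140.0 ± 8.04 TPM with BAY-876 plus TNF, 1362 ± 34.2 with TNF, 1474 ± 40.2 with BAY-876 and 1999 ± 16.2 in control cells. Ly6e made up 98.6%, 97.5%, 91.4% and 84.2% of the sum in the same groups. The ratio of Ly6c1 to Ly6a was 2.66 ± 0.35 with the combination and 3.35 ± 0.61 with TNF, against 5.50 ± 0.17 with BAY-876 and 5.34 ± 0.37 in control cells. No library with TNF reached the ratio of a library without it. Transcripts of this pair share stretches, so the ratio too depends on how shared reads were divided. Markers of the LLC line were lower mainly in the groups with TNF. Their summed level was 2446 to 2507 TPM with the combination and 2813 to 3001 TPM with TNF. It was 4351 to 4437 TPM with BAY-876 and 4563 to 4605 TPM in control cells, with 8 of 8 averaging at least 1 TPM. Fibroblast markers summed to 304 to 347 TPM with the combination, 362 to 425 with TNF, 838 to 850.4 with BAY-876 and 847 to 869 in control cells, with 3 or 4 of 7 at a mean of at least 1 TPM. The part of either list in the result was not tested.

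At 36 h, where the authors' values are normalized counts and levels of different genes cannot be compared, BAY-876 went with smaller differences. Ly6c1 read 464, 416 and 399 normalized counts with BAY-876, against 540.1, 597 and 705 with vehicle, without overlap. Ly6a read 135, 90.7 and 116 normalized counts with BAY-876, against 141, 153 and 151 with vehicle, and the highest BAY-876 library lay just under the lowest vehicle library. Ly6e read 10914, 9689 and 9891 with BAY-876, against 9772, 9765 and 9903 with vehicle, so that its groups overlapped. Fibroblast markers summed to 21541 to 23193 normalized counts with BAY-876, against 16812 to 17864 with vehicle, and T cell markers to 183 to 195 and 160 to 162, and their part in the result was not tested. Ly6c2 was listed at 0 in every library except 1 vehicle library at 0.974.

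The log2 differences at 36 h were −0.39 (SE 0.17) for Ly6a, −0.52 (SE 0.11) for Ly6c1 and 0.05 (SE 0.05) for Ly6e. The libraries of 2 of the 4 members did not overlap, and the share of all genes without overlap was not computed. On adjusted p, another measure, 14.4% of all genes tested passed. Without BAY-876 replicate 1 the Ly6e value was −0.003, and without single libraries the Ly6a value lay between −0.52 and −0.24. With the same inhibitor at 32 h, Ly6a and Ly6c1 differed by −1.32 and −1.31. The experiments differed in timing and in normalization, so the values stand side by side and their difference was not tested.

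**Figure D2:**
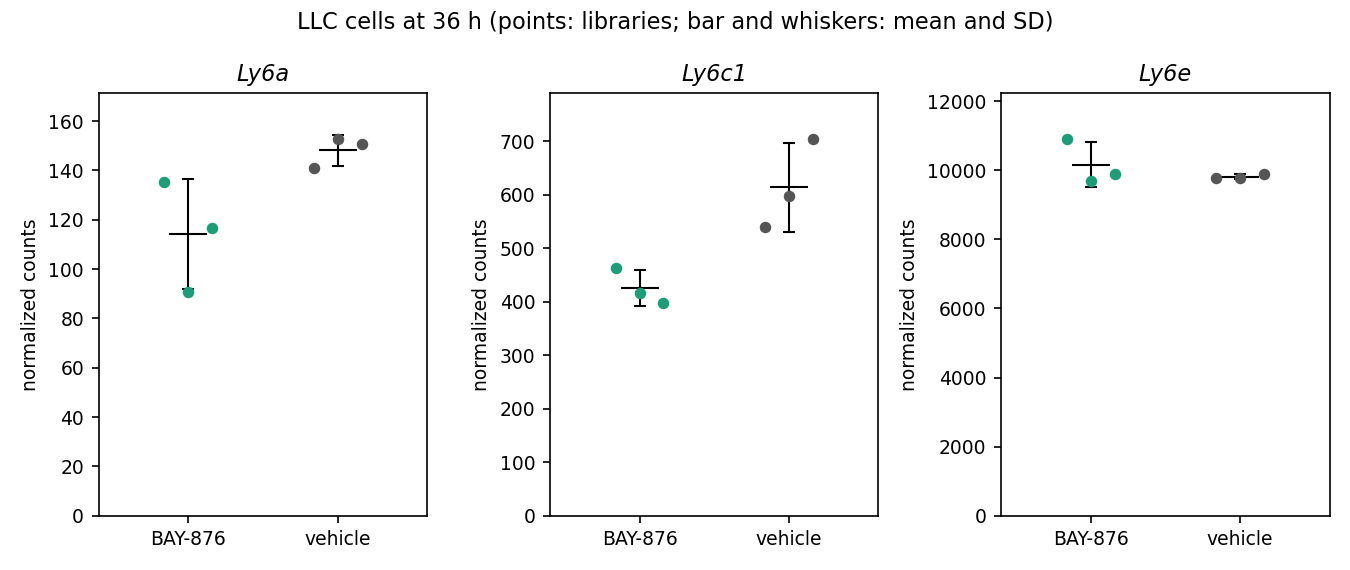
Normalized counts of Ly6a, Ly6c1 and Ly6e in LLC cells at 36 h with BAY-876 and with vehicle (n = 3 each), 1 point per library, with mean and SD. The BAY-876 libraries of Ly6a and Ly6c1 lie below the vehicle libraries, and those of Ly6e span them.

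On day 16 the Ly6c genes went opposite ways. Ly6c2 stood at 977, 1575, 1284, 818 and 1002 TPM in OT1 libraries, against 2.28, 0.194, 0.566, 2.01 and 3.09 TPM in tumour libraries. Ly6c1 stood at 28.7, 22.0, 14.97, 46.8 and 7.86 TPM in OT1 libraries, against 254, 290.5, 314, 467 and 382 TPM in tumour libraries. Neither gene had overlapping groups, with a mean ratio of 694-fold higher for Ly6c2 in OT1 cells and 14.2-fold lower for Ly6c1. The log2 differences were 8.86 (SE 0.32) for Ly6c2 and −3.96 (SE 0.37) for Ly6c1.

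Ly6a stood at 451, 734, 616, 527 and 541 TPM in OT1 libraries, against 336, 424, 399, 482 and 400.4 TPM in tumour libraries, a log2 difference of 0.48 (SE 0.13). Only OT1 replicate 1 lay within the tumour range. Ly6e stood at 1299, 1564, 1325, 1573 and 1759 TPM in OT1 libraries, against 1594, 1941, 1963, 1884 and 2103 TPM in tumour libraries, a log2 difference of −0.34 (SE 0.11). Only OT1 replicate 5 lay within the tumour range. The libraries of 2 of the 4 members did not overlap, and the share of all genes without overlap was not computed. On adjusted p, another measure, 74.5% of all genes tested passed. The median log2 difference over all genes tested was −0.21.

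The split between the Ly6c genes was near complete in both cell types. Ly6c2 made up 97.7 ± 1.90% (SD, n = 5) of the summed Ly6c1 and Ly6c2 TPM in OT1 libraries, with a range of 94.6 to 99.2%, against 0.474 ± 0.366% in tumour libraries. The sum of the pair was 865 to 1597 TPM in OT1 libraries and 256 to 469 TPM in tumour libraries. The transcripts of the pair differ in length, so this sum too depends on how shared reads were divided. The 4 members together summed to 3234 ± 431 TPM in OT1 libraries and 2649 ± 277 TPM in tumour libraries. Ly6e made up 46.9 ± 6.30% of that sum in OT1 libraries, against 71.7 ± 2.95% in tumour libraries. Ly6a made up 17.7 ± 1.29% in OT1 libraries, against 15.4 ± 1.17% in tumour libraries.

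**Figure D3:**
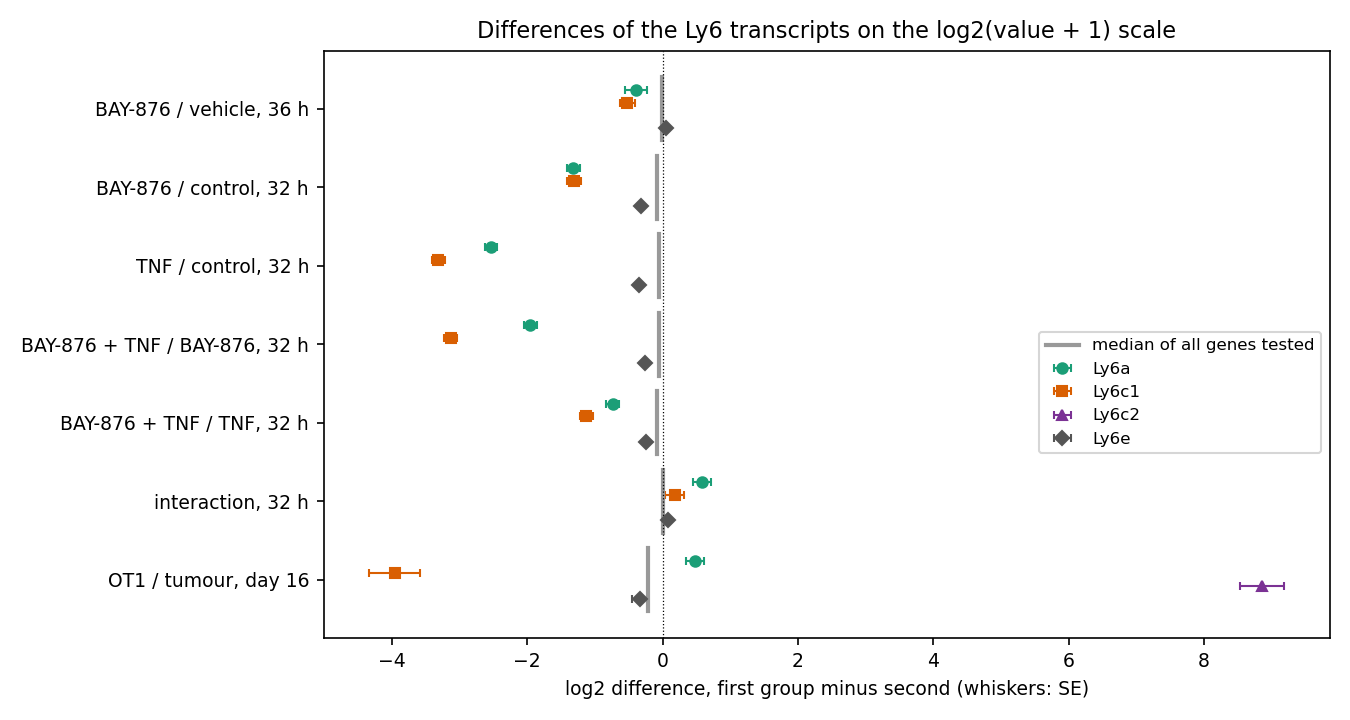
Log2 difference of each Ly6 gene with its SE in the 7 comparisons, on the log2(value + 1) scale, with the first group of each label minus the second. Grey bars mark the median of all genes tested. Ly6a and Ly6c1 lie left of the median in the culture comparisons of BAY-876 or TNF, and Ly6c1 and Ly6c2 lie on opposite sides on day 16.

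The sorted libraries held markers of other cells. The 12 T cell markers summed to 2792 to 4430.0 TPM in OT1 libraries and 8.77 to 13.1 TPM in tumour libraries, and the 8 LLC markers to 1169 to 1604 and 5031 to 5564 TPM. The 14 monocyte and macrophage markers summed to 898, 4786, 2225, 2960 and 13019 TPM in OT1 replicates 1 to 5, with 14 of 14 at a mean of at least 1 TPM, and to 36.6 to 124 TPM in tumour libraries, with 7 of 14. Monocytes are a known source of Ly6c2. Ly6c2 was 977 TPM in the OT1 library with the lowest sum of these markers and 1002 TPM in the one with the highest, and the highest Ly6c2 value belonged to replicate 2. Without OT1 replicates 2, 4 and 5, which have the highest sums, the log2 difference was 8.88 (SE 0.43) for Ly6c2, −3.94 (SE 0.27) for Ly6c1, 0.38 (SE 0.15) for Ly6a and −0.53 (SE 0.11) for Ly6e.

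The 9 endothelial markers, of a cell type known to carry Ly6c1 and Ly6a, summed to 44.6 to 63.6 TPM in OT1 libraries and 22.7 to 37.6 TPM in tumour libraries. In culture at 32 h they summed to 11.2 to 37.6 TPM, with Emcn at 0 in every library. The 14 monocyte and macrophage markers summed to 21.9 to 24.5 TPM with the combination, 18.1 to 18.4 with TNF, 18.5 to 22.3 with BAY-876 and 13.2 to 15.04 in control cells, with 2 or 3 at a mean of at least 1 TPM and Itgam and Adgre1 at 0 in every culture library. The 12 T cell markers summed to 3.17 to 7.91 TPM at 32 h, with 1 at a mean of at least 1 TPM and Cd3d and Cd3e at 0 in every culture library. Natural killer cell markers summed to 43.9 to 115 TPM in OT1 libraries and 0 to 0.512 TPM in tumour libraries, and dendritic cell markers to 43.5 to 110.4 and 7.90 to 9.98 TPM. Neutrophil markers summed to 38.7 to 172 TPM in OT1 libraries and 0.525 to 26.0 TPM in tumour libraries, and fibroblast markers to 27.6 to 85.5 and 333 to 843 TPM. The OT1 libraries took the same order by Ly6c1 as by the summed fibroblast markers (replicates 5, 3, 2, 1 and 4, low to high). The summed LLC markers ordered them otherwise (replicates 3, 1, 4, 2 and 5). The part of any of these cell types in the Ly6 values was not tested. In such bulk libraries fewer cells of a type and less RNA per cell cannot be told apart.

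**Figure D4:**
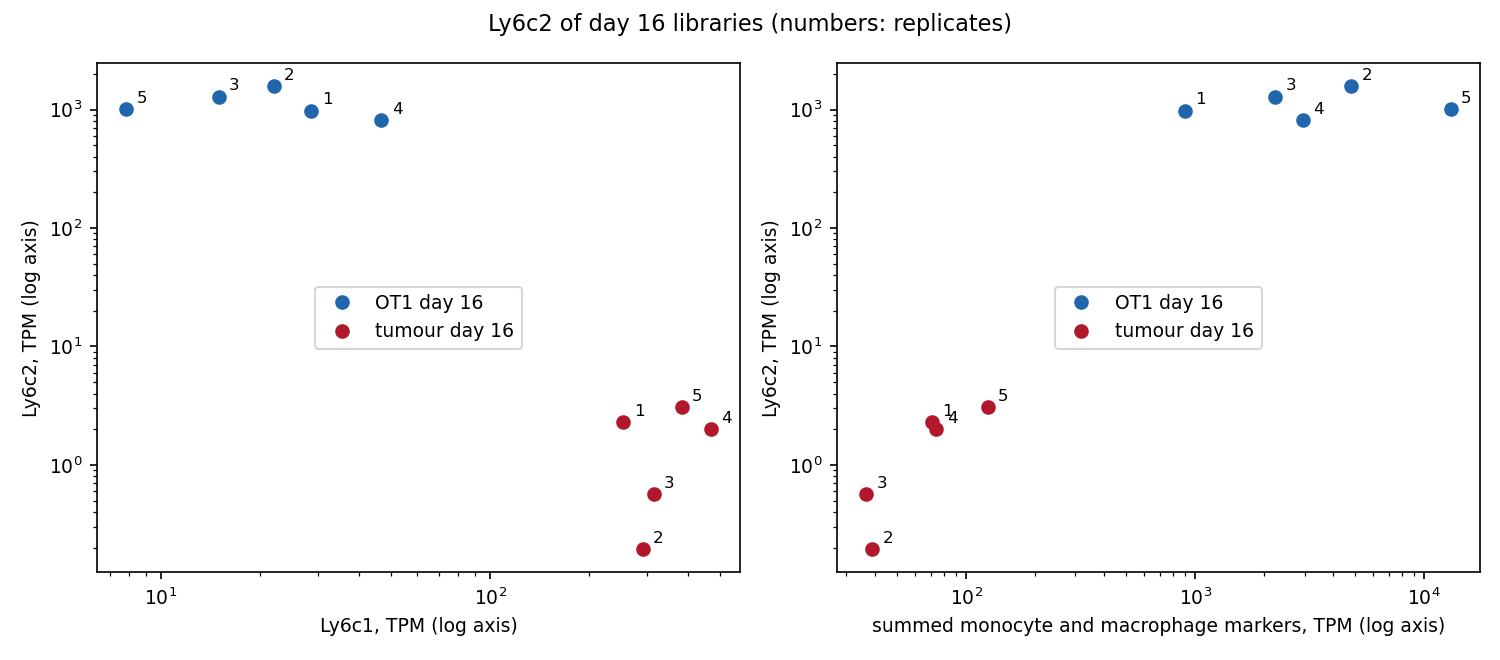
Ly6c2 in day 16 libraries against Ly6c1 (left) and against the summed level of 14 monocyte and macrophage markers (right), in TPM on log axes, with replicate numbers. OT1 libraries lie at 818 to 1575 TPM of Ly6c2 while their marker sums span 898 to 13019 TPM, and tumour libraries lie at or below 3.09 TPM.

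Set across both TPM tables, which were normalized separately, the groups fell into a different order for each gene. Mean Ly6a was highest in OT1 libraries (574 TPM), followed by tumour libraries (409), control (49.98), BAY-876 (19.4), TNF (7.84) and the combination (4.28), and only the first pair overlapped. Mean Ly6c1 was highest in tumour libraries (342 TPM) and control cells (266), which overlapped, followed by BAY-876 (107). TNF (26.0), OT1 libraries (24.0) and the combination (11.4) came last, where OT1 libraries overlapped both others. Mean Ly6e ran from 1897 TPM in tumour libraries through 1683 in control cells, 1504 in OT1 libraries, 1347 with BAY-876 and 1328 with TNF to 1124 with the combination, and the combination alone did not overlap its neighbour in that order. Ly6c2 was at 1131 TPM in OT1 libraries and 1.63 TPM in tumour libraries, and at most at 0.119 TPM in a culture group.

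Around the members, most genes of the cluster were at or near 0. From Psca to Ly6f the annotation holds 22 protein-coding genes, of which 18 are not members and 15 of these are in the tables. None of the 15 passed the filter in either culture experiment, and 3 passed on day 16. Them6 was at 11.7 to 13.1 TPM in OT1 libraries and at most 0.0985 TPM in tumour libraries. Ly6d, another GPI-anchored antigen, was at 2.12 to 9.10 TPM in OT1 libraries, against 0 in 4 tumour libraries and 1.16 TPM in the other. Ly6i, the neighbour between Ly6e and Ly6a, stood at 1.70, 36.4, 9.70, 13.5 and 68.2 TPM in OT1 libraries, against 0.102, 0.196, 0.264, 0.848 and 0.309 TPM in tumour libraries. The OT1 libraries took the same order by Ly6i as by the summed monocyte and macrophage markers (replicates 1, 3, 4, 2 and 5, low to high), and their part in the Ly6i level was not tested.

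**Figure D5:**
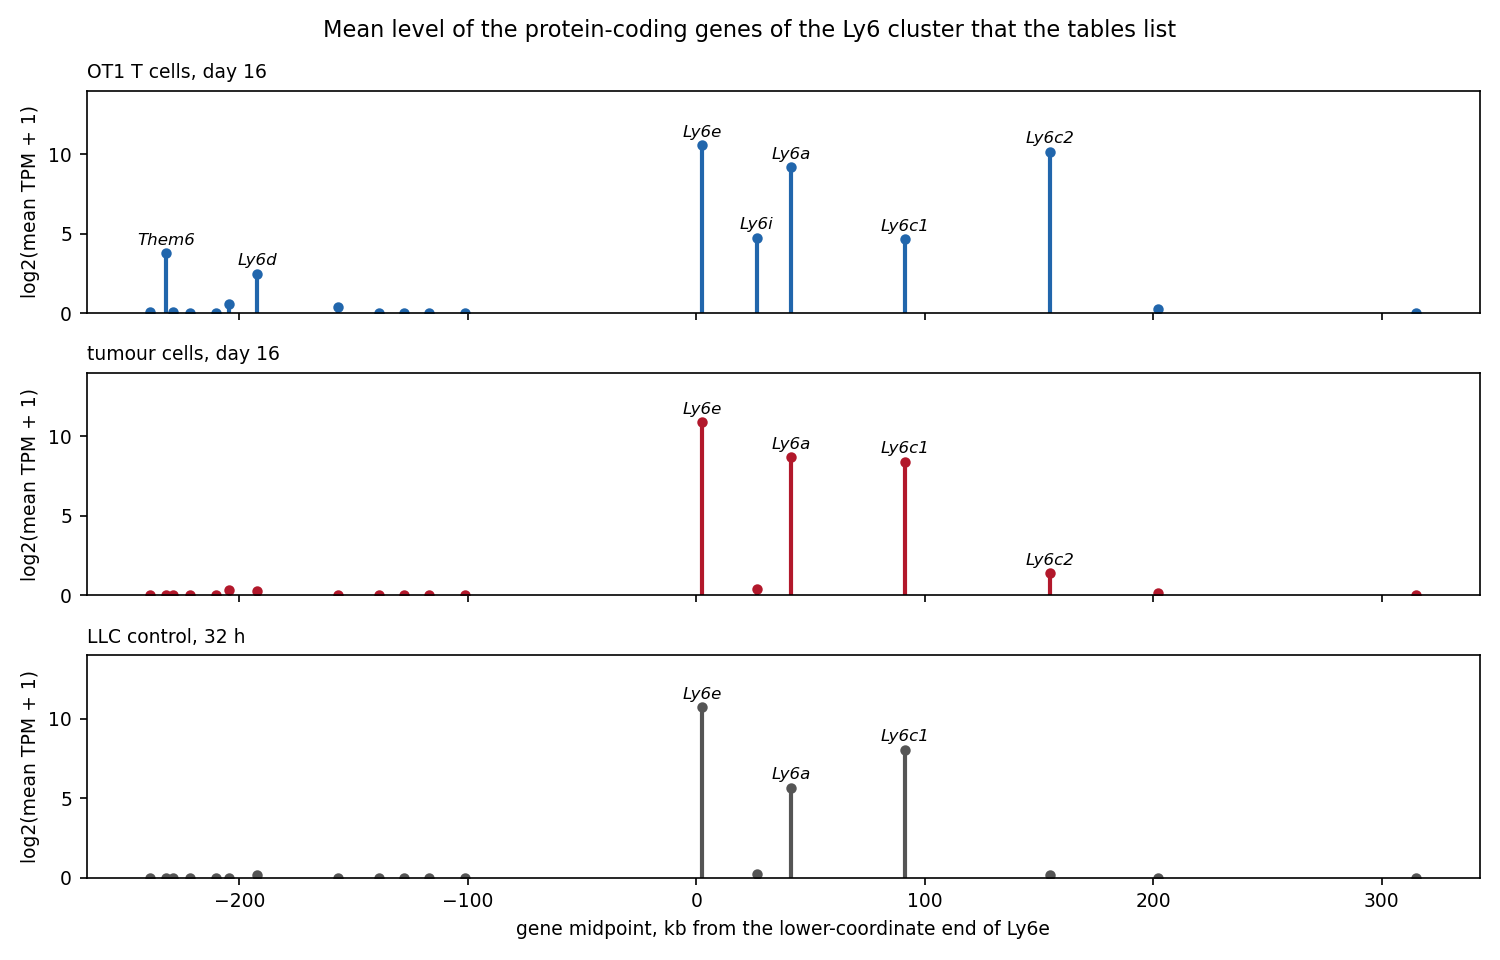
Mean level, as log2(mean TPM + 1), of the protein-coding genes of the Ly6 cluster that the tables list, placed by the distance of each gene's midpoint from Ly6e, in OT1 cells, tumour cells and control LLC cells. Ly6e and Ly6a stand out in all 3, Ly6c1 in tumour cells and control LLC cells, and Ly6c2 in OT1 cells. In OT1 cells the mean of Ly6c1 (24.0 TPM) lies beside that of the neighbour Ly6i (25.9 TPM). Most neighbours lie near 0.

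Few relatives passed the filter. Of 36 other genes of the Ly6/uPAR family, those of the cluster included, 1 passed the filter at 36 h, 2 at 32 h and 4 on day 16. Plaur, the urokinase receptor, rose with TNF, to 38.9 ± 2.12 TPM against 23.3 ± 0.844 TPM in control cells (log2 0.71, SE 0.08, limma adjusted p = 1.59e-05), while 45.6% of all genes passed in that comparison. It also rose with the combination, to 32.1 ± 3.26 TPM against 20.0 ± 1.09 TPM with BAY-876 alone (log2 0.65, SE 0.08, limma adjusted p = 3.37e-05). Against TNF alone the combination gave a Plaur log2 difference of −0.27 (SE 0.08, limma adjusted p = 0.0170), a call lost without combination replicate 1, TNF replicate 1 or TNF replicate 3 and with quantile normalization, where limma adjusted p was 0.0539 to 0.0892. At 36 h BAY-876 gave a Plaur log2 difference of 0.12 (limma adjusted p = 0.246), and at 32 h −0.21 (limma adjusted p = 0.0502). Lypd3, a keratinocyte member of the family, stood at 0.334 ± 0.117 TPM with TNF and at 0.418 ± 0.0587 TPM with BAY-876, against 1.55 ± 0.340 TPM in control cells. It passed the filter through its control libraries alone, the group where it is highest. The filter thus favoured this direction, and the Lypd3 difference is given without a test.

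On day 16, the log2 differences of OT1 against tumour cells were 3.61 for Ly6i (SE 0.69), 2.16 for Ly6d (SE 0.31) and 1.44 for Lypd6b (SE 0.15). The filter asks for 1 TPM in 5 libraries, which Ly6i and Lypd6b reached in their OT1 libraries alone and Ly6d in these and 1 tumour library. The filter thus favoured this direction, and the differences are given without a test. Plaur fell in OT1 cells and was at 73.6 ± 29.3 TPM in OT1 cells and 134 ± 38.4 TPM in tumour cells (log2 −0.88, SE 0.26, limma adjusted p = 0.00874). Without OT1 replicates 2, 4 and 5 its log2 difference was −1.31 (limma adjusted p = 0.00115).

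The pathway that attaches Ly6 proteins to their lipid was measured through 29 genes of GPI anchor synthesis and transfer, of which 28 passed the filter in each table. BAY-876 at 32 h had 1 higher and 9 lower of the 28, with a median log2 difference of −0.15 against −0.09 over all genes tested. That is 35.7% of the list beside 37.4% of all genes tested, where lower calls also prevailed (1473 higher and 3303 lower). Pigs, a subunit of the transamidase that joins the anchor to the protein, fell to 55.6 ± 1.95 TPM against 77.1 ± 1.35 TPM in control cells (log2 −0.46, limma adjusted p = 1.93e-05). Piga, the catalytic subunit of the first step, had a log2 difference of −0.40 (limma adjusted p = 0.000851). TNF had 3 higher and 10 lower with a median of −0.18 against −0.06, led by Dpm3, which tethers the mannose donor synthase, at −0.46 (limma adjusted p = 1.95e-05). Without control replicate 2, 8 of the 28 passed for TNF.

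The combination had 3 higher and 9 lower of these genes against TNF, with Pigs again lower (log2 −0.33, limma adjusted p = 0.000235). Against BAY-876 it had 2 higher and 6 lower, and 5 passed without combination replicate 1 or BAY-876 replicate 3. At 36 h, 0 were higher and 3 lower, namely Pigu (log2 −0.30), Pigm (−0.24) and Pigw (−0.38), and 0 passed without BAY-876 replicate 3 or any 1 vehicle replicate, 1 without BAY-876 replicate 2 and 0 with the replicate number as a block. With BAY-876 at 32 h, Pigw was the 1 higher gene (log2 0.46, limma adjusted p = 0.00503). Pigm was lower there (−0.32, limma adjusted p = 0.00606), and Pigu did not pass (−0.04, limma adjusted p = 0.664). On day 16, 9 were higher and 10 lower in OT1 cells, with a median of −0.02 against −0.21 over all genes tested. Mppe1, which remodels the anchor, differed by 1.77 (limma adjusted p = 1.29e-07), and Pign, which modifies its first mannose, by −1.61 (limma adjusted p = 5.64e-07). The share of the list that passed ran from 10.7% to 67.9% over these comparisons, below the share of all genes except for TNF (46.4%) and for the combination against TNF (42.9%).

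Genes of TNF and interferon signalling were read beside the members in 25 genes, of which 24 passed the filter in culture. TNF had 12 higher and 5 lower of the 24, with a median log2 difference of 0.28 against −0.06 over all genes tested, so that 70.8% of the list and 45.6% of all genes passed. Nfkbia, the NF-kappaB inhibitor that NF-kappaB itself induces, rose to 335 ± 11.96 TPM against 43.7 ± 5.41 TPM in control cells (log2 2.91, limma adjusted p = 5.66e-10). Nfkb2 rose by 1.89 (limma adjusted p = 1.26e-10), Relb by 2.599 (limma adjusted p = 1.73e-08) and Nfkb1 by 1.09 (limma adjusted p = 2.07e-08) on the log2 scale. In the same libraries Ly6a and Ly6c1 were lower than in control cells. Added to BAY-876, TNF had 14 higher and 6 lower (83.3%, against 44.2% of all genes tested), with Nfkbia at 2.76 and Nfkb2 at 1.76 (limma adjusted p = 4.91e-10 and 1.50e-10).

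BAY-876 had 0 higher and 10 lower of the 24 against control, with a median of −0.26. These are 41.7% of the list, close to the 37.4% of all genes tested, where lower calls were also the more frequent (1473 higher and 3303 lower). Jak1, the kinase shared by interferon receptors, fell to 58.8 ± 0.689 TPM against 80.7 ± 1.13 TPM in control cells (log2 −0.45, limma adjusted p = 1.17e-05). Ifngr1, a chain of the interferon gamma receptor, fell by 0.79 (limma adjusted p = 3.64e-05), and Irf1, an interferon-induced transcription factor, fell by 0.83 (limma adjusted p = 3.82e-05) on the log2 scale. With TNF against control, Irf1 rose by 1.17 (limma adjusted p = 9.09e-07) and Ifngr1 by 0.52 (limma adjusted p = 0.000349). Jak1 differed there by −0.35 (limma adjusted p = 2.81e-05). Against TNF the combination also had 0 higher and 10 lower (41.7%, against 34.0% of all genes tested), with Ifngr1 at −0.94 (limma adjusted p = 1.11e-05) and Irf1 at −0.50 (limma adjusted p = 0.00122). At 36 h, 3 were higher and 0 lower, namely Relb (log2 0.70), Stat2 (0.76) and Nfkb2 (0.27), with 1 passing without BAY-876 replicate 3 or vehicle replicate 1 and 0 without vehicle replicate 3. The 3 are 12.5% of the list, below the 14.4% of all genes tested. On day 16, 15 of 25 were higher and 5 lower in OT1 cells, 80.0% of the list beside 74.5% of all genes tested. Ifngr1 was at 329 ± 52.0 TPM in OT1 cells and 26.7 ± 3.74 TPM in tumour cells (log2 3.57, limma adjusted p = 3.61e-10), and Tnfaip3, an inhibitor of NF-kappaB signalling, at 230.4 ± 44.8 and 8.68 ± 1.89 TPM (log2 4.58, limma adjusted p = 2.46e-10).

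The genes most like each member across the 12 libraries of 32 h were ranked by the root mean square difference of log2 values, each gene centred on its mean, over 9190 genes. For Ly6a, whose own root mean square deviation was 1.25, these were C1qtnf1 and Cd248 (0.20 each), Dusp6 (0.22), Pla2g7 (0.26) and Clu (0.28). Dusp6, a phosphatase of ERK, averaged 30.4 TPM with the combination, 56.3 with TNF, 104 with BAY-876 and 237 in control cells. For Ly6c1, with a deviation of 1.73, they were Thbs1 (0.50), C1qtnf1 (0.52), Pla2g7 (0.53), Cd248 (0.58) and Gsn (0.61). Thus 3 of the 5 genes most like Ly6a were also among the 5 most like Ly6c1. Ly6a and Ly6c1 transcripts share stretches, and the part of that in their likeness was not tested. For Ly6e, with a deviation of 0.21, they were Tmed10 (0.030), Zfp36l2 (0.037), Copa (0.038), Dhx40 (0.042) and Ttc26 (0.044), which like Ly6e averaged lowest with the combination and highest in control cells. The libraries share their treatments, so likeness describes the pattern and is given without a test.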

How the data were processed

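Per the labels' protocols, RNA came from Trizol extraction and a SMARTER mRNA-seq kit. The tools that the authors used, per the submitters' processing notes, are STAR 2.6.1d, Salmon (0.14.1 at 36 h, otherwise 0.13.1), DESeq2 1.34.0 and mm10, with no role stated. The 36 h values that the authors deposited are a normalized count signal per gene from DESeq2, by the table's name, with library sums of 16847994 to 17134536. The deposited 32 h and day 16 values are TPM summing to 1000000 in every library, so the read depth behind them is unknown and counting intervals cannot be given. The authors' deposited tables of 4 comparisons at 32 h hold, for each gene, a log2 fold change and its error, a test score and p-values, adjusted and not. From the 32 h table, 24 columns without a labelled sample were left out. In 2 combination libraries the treatment label and the title name different compound numbers, and the title was followed.

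A gene was tested if it reached 10 normalized counts or 1 TPM in 3 or more libraries (5 or more on day 16). Each table was fitted separately on log2(value + 1) by limma 3.58.1 (R 4.3.3, with trend), using all 12 libraries of 32 h together, with Benjamini-Hochberg adjustment of p-values over every gene tested and 0.05 as threshold. The members and the gene lists were chosen with earlier results of these data known. Named genes are the 4 members, relatives past the filter, the smallest p-values of each list (up to 3 for GPI anchor, 4 for signalling) and the 5 genes most like each member. Genes of the cluster that are outside these were named after their values were seen. Gene models are of GENCODE M21 on GRCm38 and promoters of RefSeq, where Ly6c1 and Ly6c2 matched and Ly6a and Ly6e did not. Each result was recomputed with a pseudocount of 0.1 TPM or 10 counts, without the filter, with a filter on the mean (5 TPM or 100 counts), after quantile normalization, with the replicate number as a block, from the compared libraries alone and without each library. Leaving out OT1 replicates 2, 4 and 5 was chosen after seeing the data.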

Additional observations from a re-analysis of the deposited data

Results flagged for a closer look

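In 3 of 36 groups of 5 libraries, 1 library stood apart from the others. For normally distributed values, chance alone flags about 1 in 20 such groups. All 3 were traces of relatives in tumour libraries. Ly6d was at 1.16 TPM in tumour replicate 5 and at 0 in the other tumour libraries. Ly6i was at 0.848 TPM in tumour replicate 4, against 0.102 to 0.309 TPM in the others. Lypd6b was at 0.0775 TPM in tumour replicate 3 and at 0 in the others. With all others at 0, any value above 0 is flagged, so the rate of 1 in 20 does not apply to Ly6d and Lypd6b. OT1 libraries held 2.12 TPM of Ly6d, 1.70 TPM of Ly6i and 1.09 TPM of Lypd6b or more.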

How the results depend on the processing

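The 22 log2 differences of the members were recomputed under 320 alternatives. Of these, 309 lay within the spread between replicates of the reported value and 11 moved further, and 319 kept the sign. The exception was Ly6e at 36 h, at −0.003 without BAY-876 replicate 1. The difference of Ly6a between the combination and BAY-876 was −2.16 with a pseudocount of 0.1 TPM and −1.81 with quantile normalization. That of Ly6c2 on day 16 was 9.77 with a pseudocount of 0.1 TPM. Ly6e on day 16 stood at −0.53 without OT1 replicates 2, 4 and 5, and the cause was not tested. With quantile normalization the calls for BAY-876 at 32 h were 2238 higher and 2305 lower, against 1473 and 3303 as reported, and those for the combination against TNF were 1860 and 2048, against 1323 and 3018. Leaving out 1 library, the genes called ran from 648 to 2394 at 36 h (1868 reported, lowest without vehicle replicate 3) and from 110 to 250 for the interaction (199 reported, lowest without TNF replicate 2). Replicate numbers recur across groups. On day 16 the deviations of all 5 same-numbered pairs had a positive correlation (lowest 0.045, highest 0.111), within the range of differently numbered pairs (lowest −0.174, highest 0.113), and not every library was closest to its own number. In culture the lowest was −0.19 and the highest 0.12. In no table was every pair over 0.1, so the numbers were not taken to pair samples. With the replicate block the genes called were 1563 at 36 h, 4710 for BAY-876, 5773 for TNF, 5598 and 4254 for the combination against BAY-876 and against TNF, 174 for the interaction and 9930 on day 16. TPM keeps no depth, so whether Ly6c2 is absent from LLC cells cannot be read from its zeros.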
